A study of Mus musculus with 24 samples.

Results

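Kidneys of Polg+/+ mice after ischemia reperfusion surgery, which the labels call B-IRI, were compared with kidneys of Polg+/+ mice after sham surgery, with 6 RNA-seq libraries in each group. These 12 of the 24 libraries of the series were chosen by their labelled genotype and surgery and by no measured value. The other 12 libraries come from PolgD257A mice after the same surgeries. PolgD257A lacks the proofreading activity of the polymerase that copies mitochondrial DNA. Those libraries enter the choice of genes tested, the shared estimate of spread and the last comparison. Neither Polg+/+ group carries another allele or agent in the labels, and the labels state neither strain, sex and age nor the operated side and the interval between surgery and collection. The labels name the libraries of a group biological replicates without saying that each is a separate animal. The p-values therefore measure only the spread between these libraries.

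Ischemia reperfusion injury interrupts the blood supply of the kidney and then restores it. The proximal tubule, which takes back most of the filtered salt, sugar, phosphate and amino acids and lives on oxidative metabolism, is known to suffer most, above all its straight S3 segment in the outer medulla. Surviving tubule cells are known to shed their brush border, give up transport genes, express injury proteins such as KIM-1 and divide, and some later fail to regain their former state.

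The sham libraries held 16689284 to 19737994 reads assigned to genes and the B-IRI libraries 19853485 to 25355776, so that depth did not overlap between the groups (exact two-sided permutation test over all relabelings, adjusted p = 0.0043 over 4 library measures). Reads from mitochondrial genes made up 9.44% to 10.5% of sham and 8.52% to 9.47% of B-IRI libraries (adjusted p = 0.0058, same exact test). The first principal component of the 12 libraries, with 48.1% of the variance, ran from -35.6 to -27.5 in sham and from 17.5 to 46.5 in B-IRI libraries. Sham replicate 6 stood closest to the injured side of the sham group. B-IRI replicates 1, 4 and 5 lay at 17.5 to 26.0, and replicates 2, 3 and 6 at 41.2 to 46.5. The segment markers of the labelled tissue were abundant in all 12 libraries, with 137096 (112914 to 153575) and 78221 (66389 to 96779) normalized counts of the proximal phosphate transporter Slc34a1 in sham and B-IRI libraries, and 31206 (27638 to 34871) and 20854 (17882 to 30577) of the loop of Henle transporter Slc12a1. Of 12 adrenal gland markers 11 stayed under 10 normalized counts in all 12 libraries, with Cyp11b1 and Cyp11b2 at 0, and the other was Star, a cholesterol carrier of steroid synthesis, at 84.6 (67.1 to 101) and 86.7 (53.6 to 95.9). The summed list was 80.1 to 110 in sham and 64.1 to 104 in B-IRI libraries.

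After surgery the kidneys held far more RNA of tubular injury genes and less of the genes that mark the S3 segment. Values below are normalized counts per library, given as the median of a group with its lowest and highest library in brackets. The log2 change is the difference between the group means of log2(normalized count + 1) with its standard error, n = 6 per group, and the adjusted p is limma's, over all 17430 genes tested. Of these genes 21.4% were higher and 19.8% lower after B-IRI at an adjusted p under 0.05. Counts of called members in the lists below are to be set against these shares. The lists, that of early tubular injury among them, were chosen with earlier results of these data known, so their counts are not independent support. All 6 B-IRI libraries lay above all 6 sham libraries for 11.5% of genes and below them for 8.7%. With a change of at least 1 on the log2 scale, 2.81% of genes were higher and 2.04% lower.

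Havcr1 encodes KIM-1, a receptor that injured proximal tubule cells place on their surface and that lets them take up dying neighbours. It is located at chr11:46735080-46779578 (GENCODE M21 on GRCm38). Sham libraries held 137 (112 to 180.1) normalized counts of Havcr1 and B-IRI libraries 14823 (5441 to 24888), so that the lowest injured library stood far above the highest sham library. The change was 6.46 ± 0.24 on the log2 scale (adjusted p = 5.1e-16), or 88.3-fold. Krt20, a keratin of the intermediate filaments found in the gut and the urothelium (chr11:99428403-99438150), was close to the floor in sham kidneys at 16.2 (4.71 to 28.4) and reached 1061 (414 to 1702) after B-IRI. It rose by 5.87 ± 0.37 (adjusted p = 9.2e-12). Lcn2, at chr2:32384633-32388252, encodes NGAL, a protein that binds bacterial iron carriers and is secreted by injured tubule and immune cells. It had 83.7 (57.3 to 109.5) normalized counts in sham and 1632 (589 to 3709) in B-IRI libraries, a rise of 4.17 ± 0.33 (adjusted p = 4.0e-10). The 3 injury genes had no overlap between the groups. On the log2 scale the SD over the 6 sham and the 6 B-IRI libraries was 0.29 and 0.86 for Havcr1, 0.34 and 1.11 for Lcn2, and 0.80 and 0.85 for Krt20.

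Inmt encodes a methyltransferase for indoleamines and is a marker of S3 cells (chr6:55170626-55175043). Sham libraries held 24774 (20766 to 29235) normalized counts of Inmt and B-IRI libraries 5273 (3895 to 6829), without overlap. The fall was -2.22 ± 0.12 on the log2 scale (adjusted p = 9.3e-13), so that sham kidneys held 4.66 times as much. Polg itself, the gene that defines the other genotype, was level at 1053 (1031 to 1093) in sham and 1062 (1043 to 1147) in B-IRI libraries (log2 change 0.02 ± 0.04, adjusted p = 0.68).

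**Figure D1:**
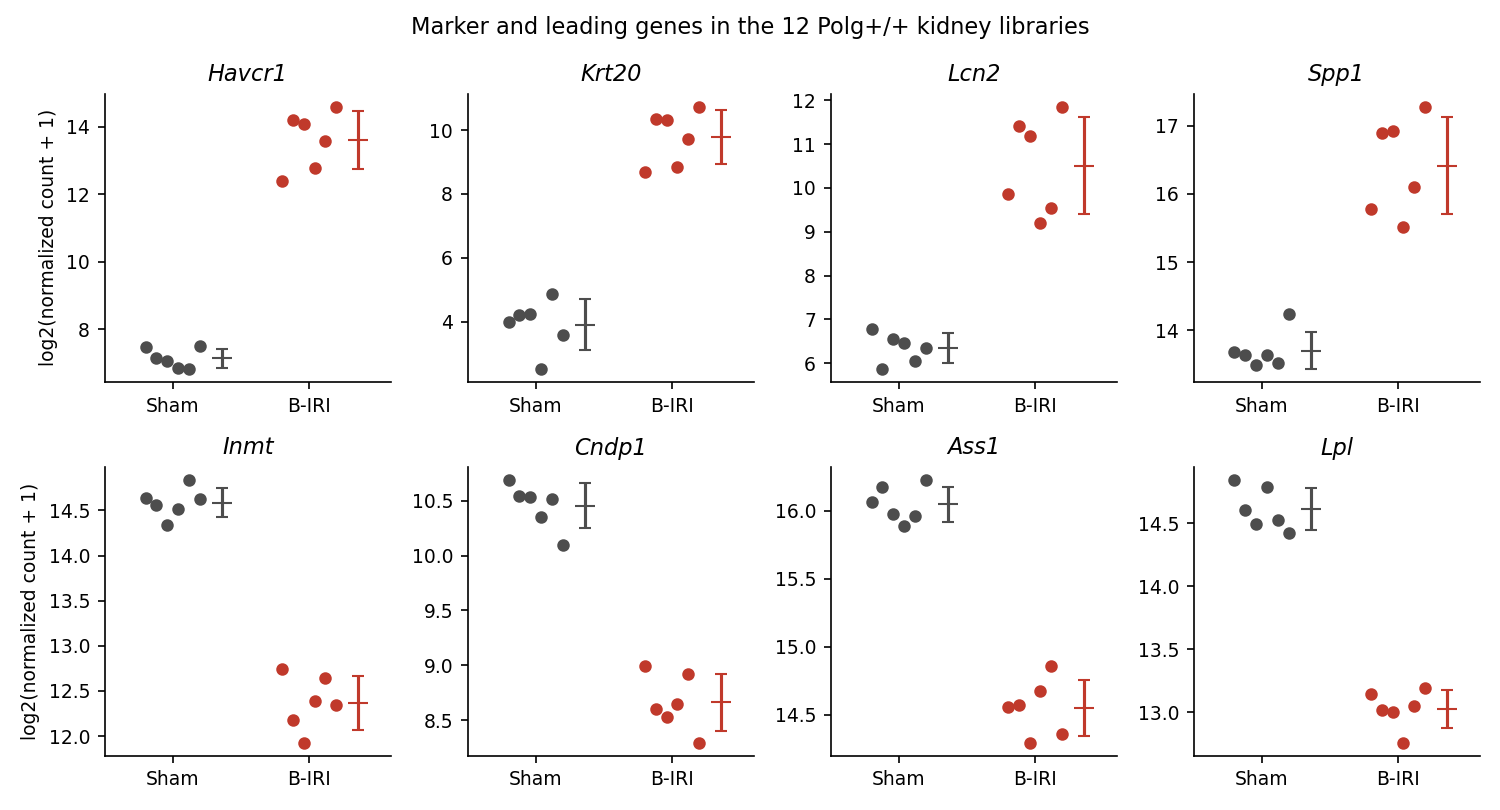
Normalized counts of 4 genes that rose and 4 that fell, as log2(normalized count + 1), with 1 point per Polg+/+ library, replicates 1 to 6 from left to right, and the mean ± SD (n = 6) beside them. Each panel has its own axis, which does not start at 0. In all 8 genes the B-IRI points lie wholly above or wholly below the sham points, and B-IRI replicates 2, 3 and 6 are the highest for Havcr1, Krt20, Lcn2 and Spp1.

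Among genes averaging 100 or more normalized counts, the 15 largest rises included, besides these 3 genes, Arg2, Cbr3, Aldh1a7, Flnc, Serpina10 and Uhrf1. Arg2, the mitochondrial arginase, went from 58.2 (40.9 to 90.6) in sham to 601 (419.6 to 858) in B-IRI libraries (3.36 ± 0.17, adjusted p = 3.2e-13). Cbr3, a carbonyl reductase, rose by 3.40 ± 0.22 and Aldh1a7, an aldehyde dehydrogenase, by 2.81 ± 0.20. Flnc, which encodes the actin crosslinker filamin C, was at 15.7 (11.8 to 20.9) in sham and 273 (55.3 to 424) in B-IRI libraries (3.61 ± 0.34, adjusted p = 4.8e-09). Its lowest injured library, at 55.3, was still above every sham library. Serpina10, which encodes an inhibitor of coagulation factor Xa, rose by 3.49 ± 0.31. Uhrf1, which guides DNA methylation onto newly copied DNA, rose from 40.7 (31.6 to 56.0) to 323 (202 to 509.6) (2.91 ± 0.23, adjusted p = 2.6e-10).

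The 15 largest falls included, besides Inmt, genes with varied roles. Cndp1, a dipeptidase for carnosine, fell from 1471 (1091 to 1648) to 393 (313 to 509) (-1.79 ± 0.12, adjusted p = 2.2e-11). Lpl, lipoprotein lipase, which frees fatty acids from circulating fat, had 24261 (21944 to 29397) in sham and 8381 (6935 to 9357) in B-IRI libraries (-1.59 ± 0.12, adjusted p = 9.2e-11). Every injured library thus lay well under every sham library. Mfsd2a, a carrier of lysophospholipids, changed by -1.61 ± 0.24, and Anxa13, an annexin of epithelial membranes, by -1.70 ± 0.14. Cyp2d12 changed by -1.66 ± 0.21, Tc2n by -1.74 ± 0.15 and Nxpe3 by -1.65 ± 0.12. These 7 genes also had no overlap between the groups, against 8.7% of all genes that lay wholly below sham. They were picked as large falls in these same libraries, so the lack of overlap is no separate support.

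In absolute terms, per kilobase of exon, the message that gained most was Spp1, which encodes osteopontin, a secreted phosphoprotein made by tubule cells and macrophages. Its mean level went from 8219 to 58418 normalized counts per kilobase, and its counts from 12748 (11555 to 19272) in sham to 95970.3 (46822 to 159132) in B-IRI libraries. The iron storage chains came next: Fth1 from 26677 to 40594 and Ftl1 from 16062 to 27043 per kilobase. Psap, the precursor of the saposins that assist lipid breakdown in lysosomes, went from 17940 to 27714 per kilobase. The largest loss was of Kap, the androgen-regulated proximal tubule protein that was the most abundant of all messages named here, from 697141 to 414644 per kilobase. Its counts were 503449 (409966 to 573031) in sham and 298762 (237910.0 to 341999) in B-IRI libraries (-0.75 ± 0.16, adjusted p = 3.6e-04). The next losses were of messages that mitochondrial DNA encodes: mt-Cytb, of complex III, from 373402 to 288816, and the complex I subunits mt-Nd1 from 336526 to 283701, mt-Nd2 from 197505 to 163106 and mt-Nd4 from 115822 to 86991 per kilobase. Of the 13 messages of the mitochondrial genome 11 fell and none rose, with a median of -0.28, and 7 fell under quantile normalization. mt-Cytb changed by -0.37 ± 0.11 (adjusted p = 0.0066) and mt-Nd4 by -0.41 ± 0.08 (adjusted p = 2.3e-04). Under quantile normalization the calls of mt-Cytb (0.08), mt-Nd1 (0.03) and mt-Nd2 (-0.06) were lost, with the direction turned for mt-Cytb and mt-Nd1. The call of mt-Nd1 was lost with any 1 of sham replicates 1, 2, 4, 5 and 6 or B-IRI replicates 2, 3, 4, 5 and 6 left out (adjusted p from 0.051 to 0.096). The mitochondrial ribosomal RNAs went the other way, mt-Rnr2 from 26967 to 37745 and mt-Rnr1 from 31180.5 to 40842 per kilobase. Miox, the enzyme that opens the ring of inositol, fell from 35568 to 15720 and Cyp4b1 from 35840 to 16821 per kilobase. The 489 genes that rose by at least 1 on the log2 scale held 0.456% to 0.538% of all counts in sham and 1.41% to 2.38% in B-IRI libraries. The 356 that fell as much went from 2.90% to 3.35% down to 1.19% to 1.57%.

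**Figure D2:**
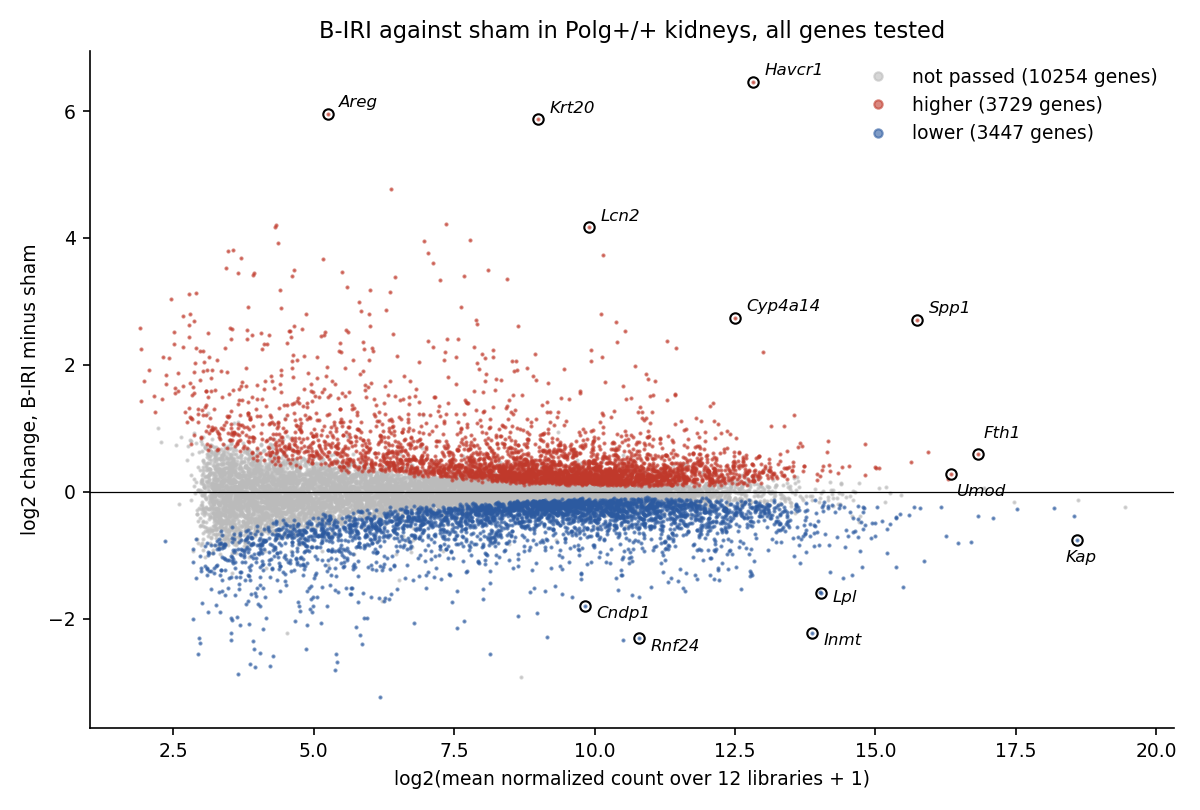
Log2 change against mean abundance for the 17430 genes tested, coloured by call at an adjusted p under 0.05, with 13 genes labelled. Havcr1 combines the highest change with high abundance, Spp1 and Fth1 rise among the most abundant genes, and the falls of Inmt, Lpl and Kap lie at high abundance too.

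Along the nephron most markers of the proximal tubule fell, while those of several later segments moved in both directions or did not pass the test. In bulk tissue fewer cells of a type and less RNA per cell cannot be told apart. Of 22 markers of the S3 segment 17 fell and 3 rose, against 19.8% lower and 21.4% higher among all genes, and their median log2 change was -0.66 against -0.01 over all genes tested. Aadat, an aminotransferase of the kynurenine pathway, fell from 9380.3 (8381 to 10045) to 3283 (2599.5 to 3665) (-1.53 ± 0.12). Slc7a13, a transporter of aspartate and cystine, fell from 24031 (21569.8 to 27350.5) to 8099.6 (6144 to 11216) (-1.58 ± 0.18). Slc22a7, a carrier of organic anions, fell by 1.24 ± 0.15 and Cyp7b1, an oxysterol hydroxylase, by 1.51 ± 0.19. The 3 S3 markers that rose were Cyp4a14 (2.74 ± 0.52), the amino acid transporter Slc6a18 (0.40 ± 0.08) and the glucose transporter Slc5a1 (0.23 ± 0.09). The call of Slc5a1 was lost with any 1 of sham replicates 1, 2 and 5 or B-IRI replicates 1, 2, 5 and 6 left out (adjusted p from 0.051 to 0.093).

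Of 28 markers of the S1 and S2 segments 19 fell and 1 rose, with a median of -0.49. Ass1, which encodes argininosuccinate synthase, the enzyme with which the kidney starts its making of arginine, was among the most abundant, with 66541 (60738 to 76680.0) in sham and 24221 (20127 to 29706) in B-IRI libraries (-1.495 ± 0.10, adjusted p = 1.7e-11). Cyp2e1 fell by 1.36 ± 0.14, Acsm1 by 0.84 ± 0.07 and Fbp1, the fructose bisphosphatase of glucose production, by 0.83 ± 0.10. Gsta2, a glutathione transferase, was the member that rose, from 2343 (1802 to 3587) to 6209 (5499 to 7367) (1.40 ± 0.13).

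In the thick ascending limb 3 of 18 markers fell and 2 rose, with a median of -0.07, and 1 fell without sham replicate 4, against 5 with library weights or with only the 12 libraries fitted. Egf, the growth factor precursor made in this segment and in the distal convoluted tubule, fell from 35289 (30655 to 37199) to 14462 (9953 to 18852) (-1.31 ± 0.25, adjusted p = 1.4e-04). Umod, made in the same segment, which encodes uromodulin, the most abundant protein of normal urine, rose slightly from 73949.7 (64815 to 86851) to 92751 (81666 to 101845) with overlap between the groups (0.28 ± 0.10, adjusted p = 0.027). Cldn19, a claudin of the magnesium pathway, rose by 0.63 ± 0.15. Cldn10 and Irx1 fell by 0.26 ± 0.09 and 0.40 ± 0.15. The call of Umod was lost with any 1 of sham replicate 3 or B-IRI replicates 3, 4 and 6 left out (adjusted p from 0.051 to 0.072). The call of Cldn10 was lost with any 1 of sham replicates 1 and 4 or B-IRI replicate 6 left out (adjusted p from 0.052 to 0.070). The call of Irx1 was lost with any 1 of sham replicates 3, 4, 5 and 6 or B-IRI replicates 2, 3 and 5 left out (adjusted p from 0.050 to 0.092). In the distal convoluted tubule 9 of 15 markers fell and none rose, with a median of -0.27, and 5 fell under quantile normalization. Kl, which encodes klotho, the coreceptor of FGF23, fell from 16872 (14729 to 19301) to 10554 (9401 to 12621) (-0.64 ± 0.09). The thiazide-sensitive transporter Slc12a3 fell by 0.32 ± 0.09, and Klhl3, a part of the ubiquitin ligase that restrains it through WNK kinases, by 0.53 ± 0.12. The call of Slc12a3 was lost under quantile normalization (-0.01, adjusted p = 0.96).

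In the collecting duct most intercalated cell markers fell and most principal cell markers did not pass the test. Of 13 principal cell markers 3 rose and 1 fell, with a median of 0.10. The water channel Aqp2 rose from 5870.5 (4620.3 to 8519) to 9363 (7209 to 10929.5), with overlap between the groups (0.56 ± 0.18, adjusted p = 0.015). Krt18 rose by 0.90 ± 0.18, Kcne1 by 0.27 ± 0.08, and Gata3 fell by 0.30 ± 0.11. The call of Gata3 was lost with any 1 of sham replicates 1, 5 and 6 or B-IRI replicates 2, 3, 4 and 5 left out (adjusted p from 0.052 to 0.11). Of 16 intercalated cell markers 11 fell and none rose, with a median of -0.32. Foxi1, the transcription factor that defines intercalated cells, fell from 647 (537 to 1044) to 387 (328 to 466) (-0.78 ± 0.12, adjusted p = 1.4e-05). Slc26a4, the chloride and bicarbonate exchanger pendrin, fell by 0.35 ± 0.06. Sham replicate 6 held the highest summed level of intercalated markers, 34737 against at most 31862 in the other sham libraries and 25171 to 27646 after B-IRI. Without that library, and likewise without B-IRI replicate 2, 7 of the 16 intercalated markers were lower. Without sham replicate 6, 6 of the 15 distal convoluted tubule markers were lower and 1 higher.

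In the thin limb list of 9 genes 2 rose, near the 21.4% higher among all genes, and the claudin Cldn4 had the smaller of these rises (0.65 ± 0.16). The other 7, among them Aqp1, Slc14a2, Fst, Akr1b3, Sptssb and Corin, had changes between -0.70 for Corin and 0.59 for Slc14a2 and did not pass. Without B-IRI replicate 5, or with only the 12 libraries fitted, 4 rose. In the glomerulus 3 of 16 podocyte markers rose and 2 fell, against 21.4% higher and 19.8% lower among all genes. Nphs1, which encodes nephrin of the slit diaphragm, changed by 0.02 ± 0.10 and did not pass, Synpo rose by 0.32 ± 0.09, and the basement membrane chains Col4a3 (-0.46 ± 0.07) and Col4a4 (-0.48 ± 0.08) fell. Of 20 endothelial markers 1 rose and 3 fell, with a median of 0.03, and 1 fell when any of 6 of the 12 libraries was left out. Without B-IRI replicate 1, 3 rose. Igfbp3, which binds insulin-like growth factors in the circulation, fell from 3884 (3508 to 5342) to 1501 (940.2 to 2117) (-1.41 ± 0.14, adjusted p = 2.1e-08), while Pecam1 changed by 0.09 ± 0.11 and did not pass.

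**Figure D3:**
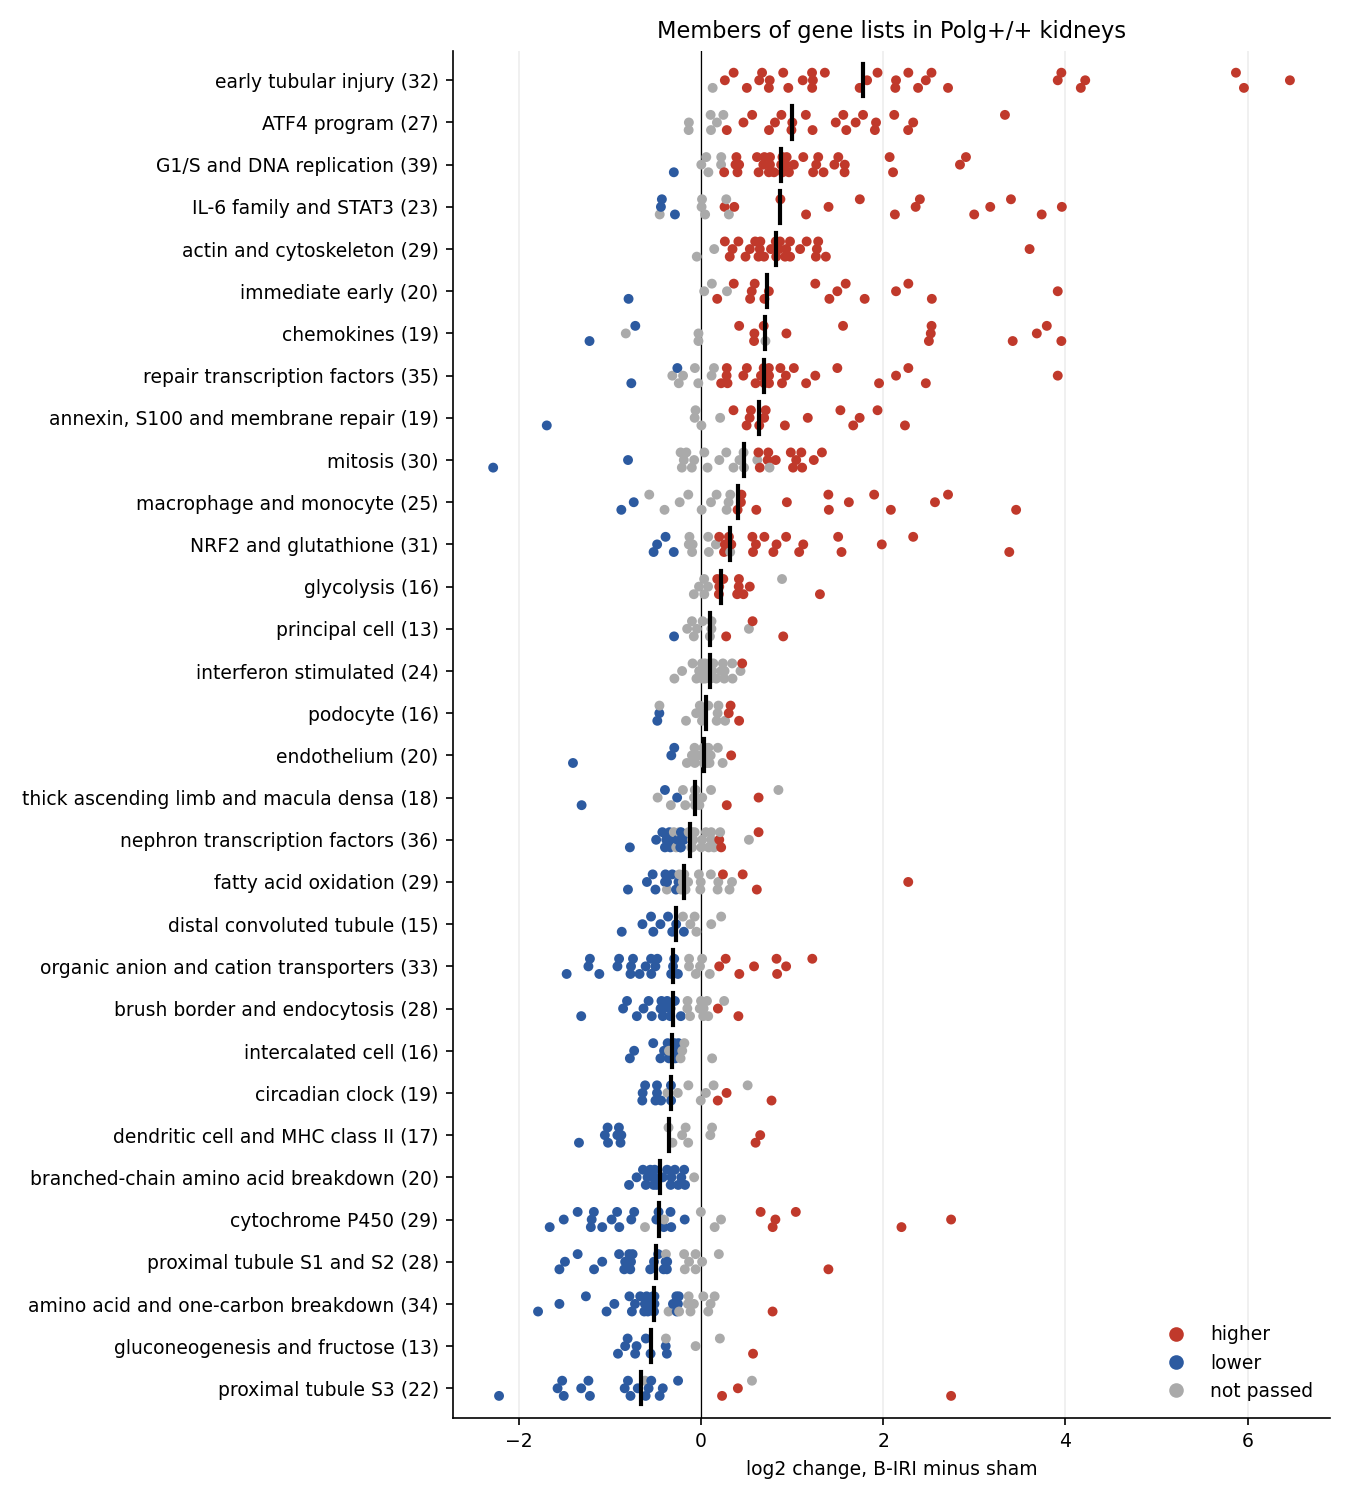
Log2 change (B-IRI minus sham) of each member of 32 gene lists, 1 point per gene tested, coloured by call, with the median of each list as a black bar and the number of genes in brackets. The lists are ordered by median, from S3 markers at -0.66 to early tubular injury at 1.78, and single members such as Cyp4a14 and Kif20b lie far from the rest of their list.

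Injury genes rose almost without exception. Of 32 genes of early tubular injury 31 rose, in 24 of them without overlap between the groups, against 11.5% of all genes. Hbegf, a ligand of the EGF receptor, was the member that did not pass (0.13 ± 0.10, adjusted p = 0.31). Areg, which encodes amphiregulin, another ligand of that receptor, was at 0 in all 6 sham libraries and at 80.8 (14.7 to 115) after B-IRI (adjusted p = 3.3e-11). Tnfrsf12a, the receptor of the cytokine TWEAK, rose from 419 (373 to 512) to 2499 (1523 to 3763) (2.53 ± 0.15), and Lgals3, galectin-3, from 789.5 (677 to 892) to 4220.3 (2633 to 6283) (2.38 ± 0.15). Within the list of 20 EGF receptor ligands, receptors and growth factors, 4 rose and 5, Egf among them, fell. These counts are close to the 21.4% higher and 19.8% lower among all genes. The receptor gene Erbb3 fell by 0.65 ± 0.12 and Igf1r by 0.49 ± 0.09, while Gdf15 rose by 1.92 ± 0.17 and Pdgfb by 0.61 ± 0.11.

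Genes of the cytoskeleton rose in most cases. Of 29 actin and microtubule genes 27 rose, 26 of them without overlap between the groups, with a median of 0.82. Tagln2, an actin-binding protein, rose from 2069 (1926 to 2161) to 4223 (3363 to 4641) (0.98 ± 0.08, adjusted p = 2.8e-10). The tubulins Tubb2a (1.27 ± 0.10), Tubb2b (1.37 ± 0.12), Tubb5 (1.26 ± 0.11) and Tuba1b (1.16 ± 0.10) rose by similar amounts, and their reads may be shared among near-identical copies. Of 19 annexin, S100 and membrane repair genes 14 rose and 1, Anxa13, fell. Myof, which encodes myoferlin, a calcium sensor of membrane repair, rose from 703 (614 to 754) to 2206 (1565 to 2856) (1.67 ± 0.10). S100a6 rose by 2.24 ± 0.18, S100a10 by 1.53 ± 0.10 and Anxa5, which covers membrane wounds, by 0.71 ± 0.07. Among 19 keratin and junction genes 9 rose and 3 fell, with Krt8 up by 1.36 ± 0.12 and the cadherins Cdh2 (-0.27 ± 0.11) and Cdh16 (-0.20 ± 0.05) down, the latter not under quantile normalization (adjusted p = 0.99). The call of Cdh2 was lost with any 1 of sham replicates 1, 2, 3 and 5 or B-IRI replicates 1, 3, 4, 5 and 6 left out (adjusted p from 0.061 to 0.11).

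Immediate early genes, the transcription factors switched on within minutes of a stimulus, were higher in 16 of 20 cases and lower in 1. Atf3 rose from 30.1 (24.6 to 39.0) to 143 (71.7 to 202) (2.14 ± 0.21), and Fosl1, a partner of Jun in AP-1, from 1.77 (0 to 3.38) to 42.8 (6.91 to 50.9) (3.92 ± 0.43). Myc rose by 2.27 ± 0.25 and Junb by 1.25 ± 0.16. Dusp1, a phosphatase that switches off stress kinases, was the member that fell, from 856 (683 to 1343) to 502 (388 to 674) (-0.80 ± 0.15). In RefSeq promoter windows on GRCm38.p6, 250 bases before to 50 after a gene's start, the AP-1 letters TGANTCA, which read alike on both strands, were present in 14.3% of 349 genes that rose by at least 1, in 8.30% of 229 genes that fell by at least 1 and in 6.75% of all 11858 genes tested that had a window. A match describes these letters only and shows no binding.

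Secreted signals of inflammation rose in most cases. Of 19 chemokines 13 rose and 2 fell, with a median of 0.71. Cxcl1 went from 13.3 (7.69 to 21.04) to 196 (127 to 369) (3.96 ± 0.27), Cxcl2, which draws neutrophils, from 1.27 (0 to 2.34) to 23.7 (7.77 to 45.9) (3.42 ± 0.38), and Ccl2, which draws monocytes, from 11.3 (10.1 to 17.6) to 89.5 (30.2 to 125) (2.52 ± 0.34). Ccl20, at 0 to 1.35 in sham and 3.44 to 36.8 in B-IRI libraries, rose by 3.69 ± 0.47. Ccl7, at 0 to 1.35 in sham and 6.91 to 37.8 in B-IRI libraries, rose by 3.80 ± 0.49. With sham counts this low, the size of both changes depends on the 1 added before the log. Cxcl2, Ccl20 and Ccl7 reached the limit for testing, 10 normalized counts in 6 libraries, only with PolgD257A libraries counted. Among the 12 libraries only B-IRI ones held 10 or more of any of them. The members that fell were Cxcl12 (-0.72 ± 0.14), made by stromal and epithelial cells at rest, and Cxcl9 (-1.23 ± 0.36), a target of interferon gamma. In the list of the IL-6 family and STAT3, 14 of 23 genes rose and 3 fell. Lif rose from 9.42 (6.76 to 16.9) to 90.1 (41.4 to 189) (3.00 ± 0.31) and Stat3 itself from 1388 (1226 to 1473) to 2563 (2002 to 3165) (0.87 ± 0.08), while Lifr, a receptor chain, fell by 0.43 ± 0.06, Il11ra1 by 0.29 ± 0.07 and Il18 by 0.44 ± 0.17. The call of Il18 was lost with any 1 of sham replicates 3, 4 and 5 or B-IRI replicates 2, 3 and 4 left out (adjusted p from 0.072 to 0.11).

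Few interferon-stimulated genes were called. Of 24 such genes 1, Ddx58, which encodes the RNA sensor RIG-I, rose (0.45 ± 0.07), and none fell, with a median of 0.10. Without sham replicate 1 or 6 the count was 3, without B-IRI replicate 2 or 5 it was 2, without B-IRI replicate 1 it was 4, and with library weights it was 5. The share called with all 12 libraries, 1 of 24, lay under the 41.2% of all genes. In the complement list 5 of 21 genes rose and 4 fell, close to the 21.4% higher and 19.8% lower among all genes. C3, the central component, rose from 316 (231 to 587) to 2388 (1607 to 2724) (2.67 ± 0.21), and C5ar1, the receptor of C5a on myeloid cells, from 9.44 (7.01 to 12.4) to 53.8 (27.6 to 96.6) (2.45 ± 0.26). Cfb fell by 0.79 ± 0.10 and the complement brake Cd55 by 0.62 ± 0.11.

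Markers of immune cells moved in both directions. Of 25 macrophage and monocyte markers 13 rose and 2 fell. Cd68, a lysosomal protein of phagocytes, rose from 58.7 (52.6 to 68.1) to 272 (170.1 to 342) (2.08 ± 0.14), and Gpnmb by 3.46 ± 0.39. Csf1r, the receptor that resident macrophages depend on, fell from 1417 (1342 to 1598) to 841 (785 to 1004) (-0.74 ± 0.08, adjusted p = 3.4e-08). The antigen presentation genes fell with it: Cd74 from 3093 (2801 to 3744) to 1748 (1382 to 2007) (-0.88 ± 0.09), H2-Aa by 1.02 ± 0.11, H2-Ab1 by 0.90 ± 0.11 and H2-Eb1 by 1.03 ± 0.11. Of 17 dendritic cell and MHC class II genes 8 fell and 2 rose. Xcr1 (-1.34 ± 0.33) and Clec9a (-0.92 ± 0.18), which mark cross-presenting dendritic cells, were among the 8, and Itgax (0.65 ± 0.24) and Batf3 (0.60 ± 0.20) were the 2. The call of Itgax was lost with any 1 of sham replicates 1, 2 and 5 or B-IRI replicates 2, 5 and 6 left out (adjusted p from 0.050 to 0.10). The summed macrophage list without Spp1 was 11143 to 12302 in sham and 8758 to 11596 in B-IRI libraries, although 12 of its 24 other members tested rose. Of 16 neutrophil markers listed, 6 were abundant enough to be tested. Of these, S100a8 (2.56 ± 0.45), S100a9 (2.48 ± 0.46) and Clec4d (2.52 ± 0.48) rose, while Csf3r (0.09 ± 0.31), Mmp9 (-0.14 ± 0.40) and Hdc (0.09 ± 0.22) did not pass. With a filter of 50 normalized counts 0 neutrophil markers were called higher. Clec4d was at 0 to 4.51 in sham and 2.59 to 14.7 in B-IRI libraries. It reached the limit for testing only with PolgD257A libraries counted. S100a8 reached at most 39.9 normalized counts, and the granule genes Ly6g, Ngp, Camp, Elane and Mpo stayed under 3 in all 12 libraries. Of 20 T, NK and B cell markers tested 1, Trac, fell (-0.94 ± 0.26) and none rose.

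Genes linked to failed repair of the tubule rose in most cases. Of 20 such genes 15 rose and none fell, with a median of 0.63. Itgb6, an integrin chain that activates TGF-beta at the surface of epithelia, rose from 1268 (1043 to 1496) to 2182 (1991 to 2218) (0.75 ± 0.08, adjusted p = 3.0e-08). Csf1 (1.36 ± 0.16) and Il34 (1.05 ± 0.15), the ligands of the receptor that Csf1r encodes, both rose, and the adhesion molecules Icam1 (0.81 ± 0.11) and Vcam1 (0.67 ± 0.20) rose with them. Of 20 genes of TNF receptors and NF-kB 15 rose and none fell. Among 27 matrix proteases and their inhibitors 15 rose, led by the inhibitor Timp1 (4.22 ± 0.33), and 4 fell. Plaur, the receptor that holds urokinase on the cell surface, rose from 93.3 (72.2 to 128) to 509 (204 to 703) (2.24 ± 0.21), and Adamts4, a protease of matrix proteoglycans, from 18.2 (10.1 to 21.04) to 136 (52.7 to 227) (2.87 ± 0.27). Plg, which encodes plasminogen, fell from 11.4 (7.01 to 16.2) to 0.983 (0 to 4.32) and Mmp13 from 29.0 (22.4 to 42.6) to 15.6 (6.04 to 24.7) (-1.12 ± 0.25).

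Genes of the integrated stress response, which the transcription factor ATF4 drives when amino acids run short or mitochondria fail, rose in 21 of 27 cases and none fell, with a median of 1.00. Trib3, a pseudokinase that feeds back on ATF4, was among the 15 largest rises, from 22.9 (13.5 to 34.2) in sham to 292 (62.2 to 441) in B-IRI libraries (3.34 ± 0.39, adjusted p = 1.8e-07). Asns, asparagine synthetase, rose from 147 (114 to 220.3) to 647 (352 to 696) (1.91 ± 0.18), Atf5 by 2.12 ± 0.19, Eif4ebp1 by 1.56 ± 0.12 and Aldh18a1, of proline synthesis, by 1.70 ± 0.18. The letters TGATGNAA, the composite site of ATF4 and C/EBP, were found on either strand in the promoter windows of 7 of 24 genes of the list (29.2%) and in 2.78% of all 11858 genes. The list holds genes already tied to ATF4, so these shares describe the list and not the surgery. The windows of Trib3 and Asns are shown because both genes rose with the list and hold these letters, and they were picked after the matches were seen. The capitals mark the match, which starts 14 bases after the transcription start of Trib3, on the reverse strand, and 23 bases before that of Asns (RefSeq, GRCm38.p6, both genes on the minus strand, chr2:152344011-152344310 and chr6:7693160-7693459).
Trib3: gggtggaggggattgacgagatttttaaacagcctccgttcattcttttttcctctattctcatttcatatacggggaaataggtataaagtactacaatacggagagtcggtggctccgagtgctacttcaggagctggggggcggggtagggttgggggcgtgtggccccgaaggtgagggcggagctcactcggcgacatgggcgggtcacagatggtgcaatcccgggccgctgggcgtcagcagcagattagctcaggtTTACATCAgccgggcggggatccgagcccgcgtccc
Asns: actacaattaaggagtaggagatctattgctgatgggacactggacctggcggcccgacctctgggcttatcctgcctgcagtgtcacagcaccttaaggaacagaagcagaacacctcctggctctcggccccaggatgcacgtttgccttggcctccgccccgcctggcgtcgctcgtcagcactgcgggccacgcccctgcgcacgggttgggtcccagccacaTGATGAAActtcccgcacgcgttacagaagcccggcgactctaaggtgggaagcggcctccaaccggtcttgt

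NRF2, the regulator of antioxidant genes, had 19 of 31 listed targets and glutathione genes higher and 4 lower. Srxn1, which encodes sulfiredoxin, the enzyme that repairs oxidised peroxiredoxins, rose from 1393 (1356 to 1450.2) to 4198 (3324 to 4681) (1.54 ± 0.11). Nqo1, a quinone reductase, rose from 1067 (921 to 1211) to 2921 (2602 to 3411) (1.504 ± 0.10), Gsta1 from 12.96 (10.6 to 18.7) to 171 (55.3 to 213) (3.38 ± 0.28) and Pgd, of the pentose phosphate pathway, by 1.12 ± 0.08. The 4 that fell were Me1 (-0.52 ± 0.07) and the abundant enzymes Sod1 (-0.30 ± 0.08), Sod2 (-0.39 ± 0.06) and Gpx1 (-0.48 ± 0.10), of which Sod1 did not pass under quantile normalization (-0.12, adjusted p = 0.15). The letters TGACNNNGC, the core of the antioxidant response element, were found on either strand in 10 of 24 windows of the list (41.7%) and in 16.9% of all 11858 genes. This list was drawn up around NRF2 targets, so these shares too describe the list and not the surgery. The window of Srxn1 is shown as the example with the match in capitals, on the reverse strand and 28 bases after the start (plus strand, chr2:152105274-152105573).
Srxn1: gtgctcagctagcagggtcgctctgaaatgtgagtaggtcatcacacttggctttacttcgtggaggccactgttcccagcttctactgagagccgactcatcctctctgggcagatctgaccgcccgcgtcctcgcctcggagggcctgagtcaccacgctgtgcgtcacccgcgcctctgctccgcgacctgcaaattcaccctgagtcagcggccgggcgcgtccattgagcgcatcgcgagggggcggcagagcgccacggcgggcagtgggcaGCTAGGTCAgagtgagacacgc

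Heme and iron genes rose beside them. Hmox1, heme oxygenase 1, went from 678 (486 to 797) to 2671 (1518 to 4078) (1.98 ± 0.18), the copper oxidase ceruloplasmin, Cp, from 815 (661 to 965) to 2192 (2013 to 2504) (1.46 ± 0.08), and the transferrin receptor Tfrc from 2096 (1236 to 2489) to 3341 (3153 to 3820.4) (0.79 ± 0.12). In all 11 of 21 iron genes rose and 2, Ireb2 and Steap3, fell. Heat shock genes rose in 14 of 18 cases with a median of 0.30, led by the small heat shock protein Hspb1 (1.82 ± 0.17). Targets of p53 rose in 11 of 23 cases and fell in 3, with the cell cycle inhibitor Cdkn1a up from 99.96 (80.7 to 137) to 488 (220.2 to 653) (2.13 ± 0.18) and the nuclease Aen by 0.68 ± 0.07. Hypoxia genes had 5 of 21 higher and 8 lower, and Epas1, which encodes HIF-2 alpha, fell by 0.38 ± 0.07.

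Genes of DNA replication rose in most cases and mitotic genes in fewer. Of 39 genes of G1/S and replication 33 rose and 1 fell, with a median of 0.88, and 25 of them had no overlap between the groups. Mcm5, a subunit of the helicase that opens DNA for copying, rose from 142 (109 to 155) to 578 (408 to 796) (2.07 ± 0.17), Mcm3 from 94.8 (76.0 to 117) to 419 (283 to 614) (2.11 ± 0.18) and Mcm2 by 1.26 ± 0.11. Cdt1, which loads that helicase, rose by 1.29 ± 0.12. The E2F letters TTTGGCGC and TTTCCCGC, searched on both strands, were each found in 6 of 31 windows of the list (19.4%), against 1.02% and 2.13% of all 11858 genes. The list was drawn up by role in replication, so these shares again describe the list and not the surgery. The windows of Mcm3 and Mcm5 are shown because both helicase genes rose and hold such letters, and they were again picked after the matches were seen. Capitals mark both matches in Mcm3, 19 and 38 bases after the start (minus strand, chr1:20820263-20820562), and the single match of Mcm5, 149 bases before it and on the reverse strand (plus strand, chr8:75109259-75109558).
Mcm3: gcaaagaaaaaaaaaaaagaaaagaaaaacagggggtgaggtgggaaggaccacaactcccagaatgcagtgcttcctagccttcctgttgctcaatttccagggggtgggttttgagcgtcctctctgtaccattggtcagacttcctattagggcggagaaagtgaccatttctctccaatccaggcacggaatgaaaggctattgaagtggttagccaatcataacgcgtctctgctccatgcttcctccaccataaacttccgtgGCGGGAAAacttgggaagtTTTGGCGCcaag
Mcm5: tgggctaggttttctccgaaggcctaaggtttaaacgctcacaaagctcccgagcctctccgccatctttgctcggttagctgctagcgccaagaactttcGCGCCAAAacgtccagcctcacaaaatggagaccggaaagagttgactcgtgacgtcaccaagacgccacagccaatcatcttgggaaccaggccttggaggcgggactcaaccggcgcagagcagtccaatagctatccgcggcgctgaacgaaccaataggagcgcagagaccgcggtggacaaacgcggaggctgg

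Of 30 mitotic genes 12 rose and 2 fell, with a median of 0.47. Cdk1 rose by 1.10 ± 0.31 and Ncapg, of the condensin complex, by 1.33 ± 0.32. The 2 that fell are kinesins: Cenpe, at 77.7 (65.1 to 119) in sham and 45.9 (37.1 to 63.2) in B-IRI libraries (-0.80 ± 0.18), and Kif20b, which fell from 909 (677 to 1334) to 180.4 (153 to 276) (-2.28 ± 0.15), without overlap between the groups.

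Most enzymes of amino acid breakdown fell. Of 20 enzymes of branched-chain amino acid breakdown 19 fell and none rose, with a median of -0.45. Ivd, isovaleryl-CoA dehydrogenase, fell from 12261 (10848 to 12930.0) to 7001 (6295 to 7737) (-0.79 ± 0.05, adjusted p = 2.3e-11) and Bckdha, of the complex that commits these amino acids to oxidation, by 0.52 ± 0.05. Of 34 other enzymes of amino acid and folate-linked breakdown 23 fell and 1, Kynu, rose (0.78 ± 0.25). Kmo, the step of the kynurenine pathway just before Kynu, fell from 3080.2 (2821 to 3563) to 1545 (1338 to 1926) (-0.95 ± 0.09). Ahcy, which clears S-adenosylhomocysteine, fell by 0.73 ± 0.07 and Cbs, of cysteine synthesis, by 1.04 ± 0.10.

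Glucose production and glucose use moved in opposite directions. Of 13 genes of gluconeogenesis and fructose handling 9 fell and 1, the mitochondrial Pck2, rose (0.57 ± 0.09), with a median of -0.56. Khk, which phosphorylates fructose, fell from 16852 (15028 to 18591) to 10174 (9778 to 14219.7) (-0.61 ± 0.11). Of 16 glycolytic genes 10 rose and none fell, with a median of 0.22, among them Pfkp (0.53 ± 0.07), Pgam1 (0.46 ± 0.04) and Aldoa, which went from 20493 (19079 to 21353) to 27053 (25958 to 28401) (0.41 ± 0.05). Slc16a3, which exports lactate, had the largest rise of the list, from 20.3 (17.5 to 36.7) to 64.0 (33.7 to 83.4) (1.30 ± 0.24), and the groups did not overlap for 7 of the 16.

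In fatty acid oxidation more genes fell than rose. Of 29 genes 10 fell, 4 rose and 15 did not pass, against 19.8% lower and 21.4% higher among all genes. Acadm, the dehydrogenase of medium-chain fatty acids, fell from 26889 (24891 to 31222) to 17843 (15698 to 24084) (-0.60 ± 0.10) and Cpt1a, which admits long chains into mitochondria, by 0.50 ± 0.09. Acot2 (0.61 ± 0.16), Eci1 (0.46 ± 0.11) and Hadha (0.24 ± 0.06) had the 3 smaller of these rises.

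Cytochrome P450 genes moved in both directions. Of 29 P450 genes 18 fell and 6 rose, with a median of -0.47. The fatty acid hydroxylases Cyp4a14, Cyp4a10 (1.04 ± 0.25) and Cyp4a12b (0.82 ± 0.19) were among the 6. Cyp4a14 was at 1009 (647 to 4871) in sham and 7321 (4487 to 20049) in B-IRI libraries, which overlapped through sham replicate 3. Cyp2a5 rose from 2955 (2082 to 4013) to 13529 (10420.0 to 16566) without overlap (2.20 ± 0.24, adjusted p = 7.0e-08). Cyp2d22 (0.65 ± 0.13) and Cyp24a1 (0.79 ± 0.23), which inactivates vitamin D, complete the 6. In the opposite direction Cyp27b1, the kidney enzyme that activates vitamin D, fell from 98.7 (45.1 to 148) to 32.2 (30.5 to 50.4) (-1.21 ± 0.27). Among 21 genes of hormones and vascular tone 7 fell and 4 rose. Ren1, which encodes renin, fell by 0.45 ± 0.17, and Agt, the substrate of renin, rose by 0.45 ± 0.12. The call of Ren1 was lost with any 1 of sham replicates 1, 2, 3 and 6 or B-IRI replicates 1, 3 and 5 left out (adjusted p from 0.050 to 0.11). Without B-IRI replicate 3, 4 of these genes were lower. Among 31 conjugation enzymes 15 fell and 8 rose, of which 5 are glutathione transferases.

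Among carriers of organic ions more fell than rose, and 6 pumps that expel drugs and conjugates rose. Of 33 carriers of organic ions 19 fell and 8 rose. The uptake carriers Slc22a26 (-1.48 ± 0.17), Slc22a7 and Slc22a8 (-0.90 ± 0.11) were among those that fell. The pumps that use ATP to export drugs and conjugates, Abcb1b (1.22 ± 0.21), Abcb1a (0.58 ± 0.13), Abcc4 (0.93 ± 0.16), Abcc3 (0.83 ± 0.14), Abcc2 (0.27 ± 0.09) and Abcc1 (0.20 ± 0.07), made up 6 of the 8. The others were Slco2a1, the prostaglandin carrier (0.83 ± 0.12), and Slco4a1 (0.42 ± 0.15). The call of Abcc1 was lost with any 1 of sham replicates 2 and 5 or B-IRI replicate 6 left out (adjusted p from 0.058 to 0.064). The call of Slco4a1 was lost with any 1 of sham replicate 2 or B-IRI replicate 6 left out (adjusted p from 0.066 to 0.076).

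Of 28 sodium-coupled and related carriers 15 fell and 6 rose. Slc34a1, the main phosphate carrier of the kidney, fell by 0.79 ± 0.11 without overlap between the groups. Slc34a2, its relative in lung and gut, rose from 57.6 (45.0 to 74.2) to 229 (123 to 660.3) (2.12 ± 0.31) and Slc20a1 from 728 (582 to 892) to 1301 (1065 to 1502) (0.83 ± 0.11). Slc9a8, a sodium and proton exchanger, fell from 6407 (5589.5 to 7206) to 2533 (1934 to 3013) (-1.37 ± 0.10, adjusted p = 4.2e-11) and Slc5a8, a lactate carrier, by 1.13 ± 0.13. Among 27 amino acid transporters 9 fell and 7 rose, against 19.8% lower and 21.4% higher among all genes. The risers included Slc7a11, which imports cystine (2.33 ± 0.35), and the carriers Slc7a1 (0.99 ± 0.12), Slc7a5 (0.81 ± 0.13) and its partner Slc3a2 (0.28 ± 0.10). The call of Slc3a2 was lost with any 1 of sham replicates 1, 3 and 4 or B-IRI replicate 4 left out (adjusted p from 0.056 to 0.074).

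Brush border and endocytosis genes fell in 16 of 28 cases and rose in 2. The peptidases Ace (-0.81 ± 0.09) and Dpep1 (-0.86 ± 0.11) and the trehalase gene Treh (-0.54 ± 0.08) fell. Vil1, which encodes villin, the protein that bundles actin in microvilli, rose from 4961 (4341 to 5200.1) to 6487 (6096 to 7009) (0.41 ± 0.06), and the endosomal chloride transporter Clcn5 by 0.18 ± 0.06.

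Transcription factors of the repairing tubule rose in most cases. Of 35 factors linked to repair and plasticity 26 rose and 2 fell, with a median of 0.69. Sox9, which marks dividing and repairing tubule cells, rose from 10.1 (4.39 to 17.7) to 51.4 (22.4 to 107) (2.47 ± 0.34), and Foxj1, the regulator of motile cilia, from 9.78 (4.06 to 11.7) to 40.5 (21.6 to 47.5) (1.95 ± 0.27). Both were low in level. Nfkb2 rose by 0.93 ± 0.09, while the repressors Bach2 (-0.77 ± 0.19) and Bach1 (-0.26 ± 0.08) fell. Of 36 nephron factors 14 fell and 3 rose, with a median of -0.12. Between 8 and 9 fell when B-IRI replicate 2, 3 or 6 or sham replicate 2 or 4 was left out, and 1 rose without sham replicate 3. Hnf4a, the central factor of the proximal tubule, had 17021 (14825 to 19747) in sham and 15960.2 (14273 to 17681) in B-IRI libraries and did not pass (-0.10 ± 0.08, adjusted p = 0.31). Nr1h4, the bile acid receptor, fell by 0.49 ± 0.10 and the mineralocorticoid receptor gene Nr3c2 by 0.34 ± 0.09. Elf3 (0.63 ± 0.11), Pax8 (0.22 ± 0.08) and Tfeb (0.20 ± 0.07) rose. The call of Pax8 was lost with any 1 of sham replicates 1, 3, 4 and 6 or B-IRI replicates 2, 3 and 6 left out (adjusted p from 0.052 to 0.088). The call of Tfeb was lost without sham replicate 3 (adjusted p = 0.062).

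Circadian clock genes had 9 of 19 members lower and 3 higher, or 1 higher without sham replicate 1. The clock outputs and repressors Per3 (-0.64 ± 0.09), Tef (-0.50 ± 0.08) and Dbp (-0.48 ± 0.14) fell, and the activators Arntl (0.77 ± 0.23) and Clock (0.18 ± 0.06) rose together with Bhlhe40 (0.28 ± 0.11). The call of Clock was lost with any 1 of sham replicates 1 and 6 left out (adjusted p from 0.051 to 0.054). The call of Bhlhe40 was lost with any 1 of sham replicates 1, 2, 3 and 4 or B-IRI replicates 2, 3, 4, 5 and 6 left out (adjusted p from 0.052 to 0.14). The labels state no hour of tissue collection, and its part in these values was not tested.

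Genes of cells outside the nephron moved with the surgery in some lists. Of 7 red blood cell genes tested 6 fell and 1, Epb42, rose. The call of Epb42 was lost with any 1 of sham replicates 2, 3 and 6 or B-IRI replicates 2, 3 and 6 left out (adjusted p from 0.051 to 0.094). Hbb-bs was at 2566 (1356 to 3449) and Hba-a1 at 1561 (809 to 2108) in sham libraries, against 1270.2 (876 to 1515) and 756 (519 to 843) in B-IRI libraries. The summed red blood cell list was 3795 to 8512 in sham and 2379 to 3524 in B-IRI libraries. Fat cell genes were uneven among sham libraries: Adipoq, which encodes adiponectin, was at 39.9 (0 to 469.6) in sham and 2.21 (0 to 35.9) in B-IRI libraries (-3.23 ± 1.30, adjusted p = 0.048). The call of Adipoq was lost with any 1 of sham replicates 2, 3, 5 and 6 or B-IRI replicates 1, 2, 3, 4 and 5 left out (adjusted p from 0.055 to 0.14). The summed fat cell list, which does not hold Lpl, was 2444 to 9024 in sham and 1513 to 2915 in B-IRI libraries, and 3 of its 9 tested genes fell. That count was 1 without any of 8 of the 12 libraries, among them sham replicates 3, 5 and 6, and 6 with edgeR or DESeq2 on recovered reads. The fall of Lpl, which fat cells also express, lies beside these values, and the part of fat tissue in it was not tested. Urothelial genes were split: Krt5 (1.62 ± 0.35), Krt14 (1.75 ± 0.39), Krt15 (1.42 ± 0.32) and Krt20 rose, and Upk1a fell (-1.23 ± 0.28). The uroplakins Upk1b (-0.42 ± 0.33), Upk2 (-0.82 ± 0.36), Upk3a (-0.36 ± 0.51) and Upk3b (-0.04 ± 0.33), the stem cell antigen Psca (-0.28 ± 0.40) and the basal cell factor Trp63 (0.00 ± 0.26) did not pass. The summed list without Krt20 was 365 to 994 in sham and 465 to 1194 in B-IRI libraries.

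The 6 injured libraries did not respond alike. The mean of the 32 injury genes on the log2 scale lay 1.51 to 2.63 above the sham mean, lowest in B-IRI replicate 1 and highest in replicate 6. Replicate 1 was also lowest for the ATF4 program, at 0.60 above the sham mean against 1.13 to 1.31 in the other 5 libraries, and for immediate early genes, at 0.57 against 0.93 to 1.35. Trib3 was at 62.2 in replicate 1 and at 218 to 441 in the others, and Fosl1 at 6.91 against 37.1 to 50.9. Fatty acid oxidation genes ran the other way, at 0.38 above the sham mean in replicate 1 and -0.27 to 0.05 in the others. Cyp4a14 reached 20049 there against 4487 to 16143, and Acadm 24084 against 15698 to 18308. Sham replicate 3 held 4871 counts of Cyp4a14 against 647 to 1139 in the other sham libraries. Without B-IRI replicate 1, 3752 genes were higher and 3445 lower, against 3729 and 3447 with all 12 libraries.

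**Figure D4:**
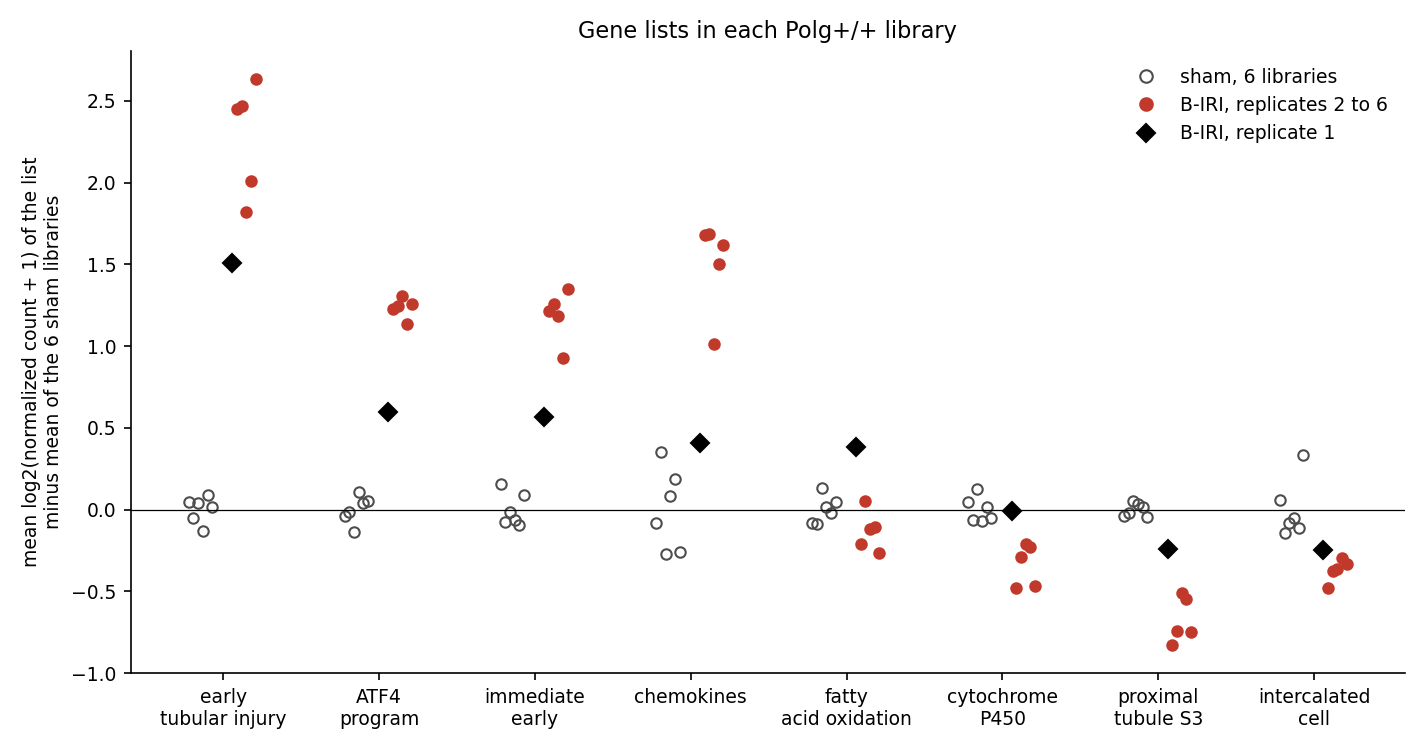
Mean log2(normalized count + 1) of 8 gene lists in each Polg+/+ library, minus the mean of the 6 sham libraries. Open circles are sham libraries, red circles B-IRI replicates 2 to 6 and black diamonds B-IRI replicate 1, which is nearest to the sham libraries for injury, ATF4, immediate early and chemokine genes and highest for fatty acid oxidation.

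Set against the same surgery in PolgD257A kidneys, most responses were shared in direction, and a part of them was smaller in Polg+/+. Of the genes higher in Polg+/+, 88.7% were also higher in PolgD257A, which is 62.9% of the longer PolgD257A list. Of the genes lower, 87.0% were also lower there, which is 56.9% of that list. The background is 30.2% of genes higher and 30.3% lower in PolgD257A, and 11 genes were called in opposite directions. The difference between the responses was tested by the surgery by genotype interaction, which was called for 15.9% of genes, 6.87% positive and 9.08% negative. Among the genes higher in Polg+/+ 20.8% had a positive interaction, and among the genes lower 28.8% a negative one. Among genes averaging 100 or more normalized counts over the 12 libraries, the 3 most positive values were those of Lcn2, Krt20 and Fgb, which encodes the fibrinogen beta chain. Lcn2 rose by 4.17 in Polg+/+ and 6.39 in PolgD257A, and Fgb by 3.96 and 5.86. The 4 most negative by the same limit were those of Egf (-1.31 and -3.45), Pvalb (-0.87 and -2.96), Tmem207 (-0.81 and -2.79) and Kcng1 (-2.06 and -4.01). The call of Pvalb was lost with any 1 of sham replicates 1, 2, 3, 4, 5 and 6 or B-IRI replicates 1, 2, 3, 4 and 6 left out (adjusted p from 0.052 to 0.085). The call of Tmem207 was lost with any 1 of sham replicates 5 and 6 or B-IRI replicates 3 and 5 left out (adjusted p from 0.052 to 0.085). Slc12a1 changed by -0.48 ± 0.22 in Polg+/+ and did not pass, against -1.86 in PolgD257A (interaction -1.39, adjusted p = 0.0032). Foxi1 fell by 0.78 ± 0.12 here and changed by 0.05 in PolgD257A (interaction 0.83, adjusted p = 0.0022). Trib3, Uhrf1 and Cyp2a5 rose in both genotypes, with interactions of -0.11, 0.32 and 0.24 that did not pass.

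**Figure D5:**
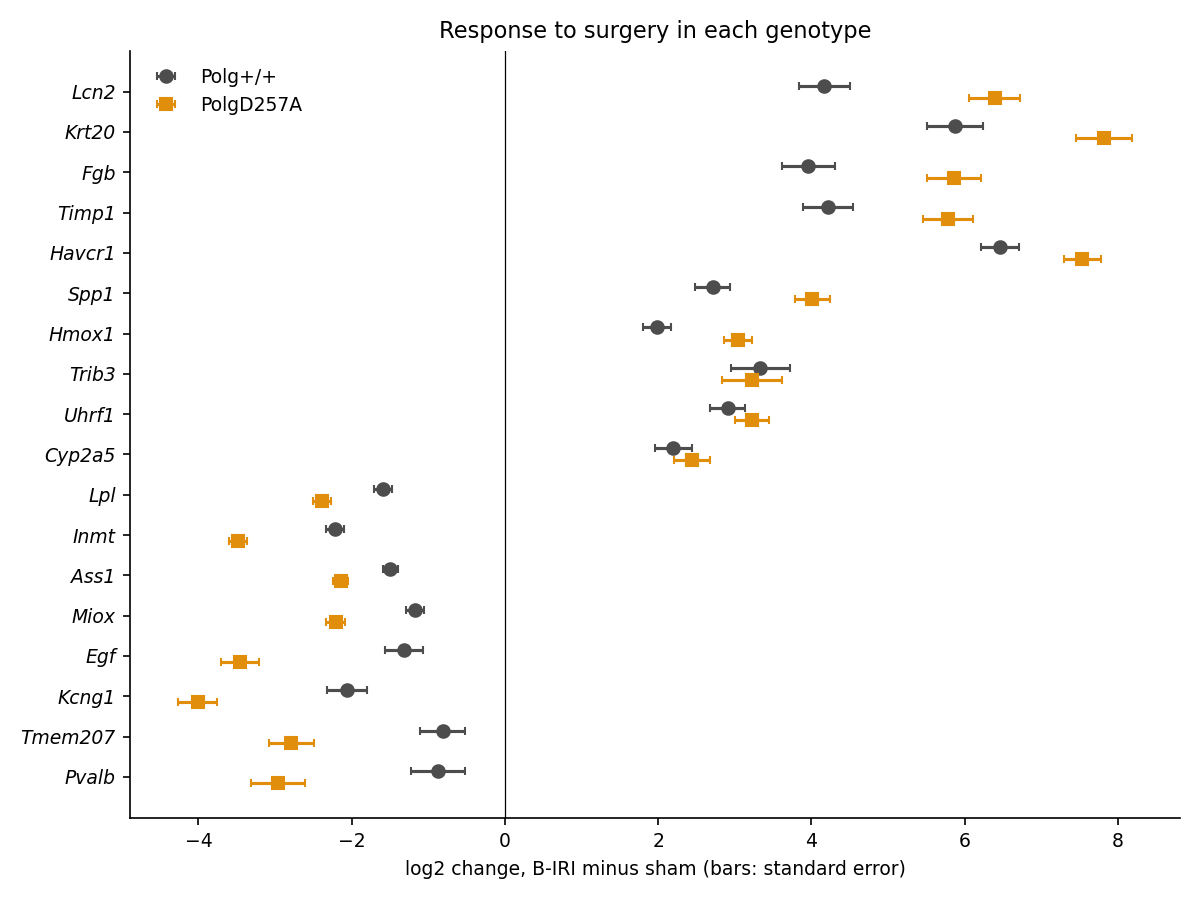
Log2 change after B-IRI with its standard error for 18 genes in Polg+/+ (circles) and PolgD257A (squares) kidneys, n = 6 libraries per surgery and genotype. The circles lie nearer to 0 than the squares for all genes shown except Trib3.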

How the data were processed

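Kidney RNA was sequenced as 24 libraries, per the labels' protocols with RNeasy extraction and the NEBNext Ultra II kit. The authors deposited normalized counts per gene, a signal in reads divided by a library size factor. STAR, SAMtools, featureCounts, DESeq2, FastQC and GRCm38.p6 are named in the submitters' processing notes without versions. Whole reads were recovered for 100% of values within 0.001, with size factors from 0.74 to 1.31, so depth is known, but whether counting used strand is not given in the sources used here. Genes that overlap another gene on the opposite strand (for example Polg, Arg2, Tc2n, Cndp1, Ftl1, Umod, Egf, Cdkn1a, Slc34a1 and Ace) and near-identical copies (globins, tubulins, Gsta1 and Gsta2, Cyp4a10 and Cyp4a14, Cyp2d12) are uncertain for that reason. Of 55416 gene IDs 52083 were found in GENCODE M21, of which 35 carry the same version number, so the release the authors counted may be another, and coordinates and exon lengths here are those of M21 on GRCm38.

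The genes tested were the 17430 that reached 10 normalized counts in 6 or more of all 24 libraries. They were tested on log2(normalized count + 1) with limma 3.58.1 in R 4.3.3. There were 4 groups in 1 fit, with a trend in the variance and Benjamini-Hochberg adjustment, called at 0.05. As alternatives, recovered reads were fitted with DESeq2 1.42.0 and edgeR 4.0.16. Others changed the pseudocount, filter, scaling, libraries, weights and replicate block. The test was tried on simulated data for this comparison with 17430 genes. There 87% of genes changed by 1 and 99% of genes changed by 2 on the log2 scale were called, with 15 false calls. Each size of change was set in 100 genes with sham means of at least 10, up and down alike, and only in B-IRI Polg+/+. In the data 41.2% of genes were called, so the simulation does not measure the false calls at that extent of change. Library measures were compared with an exact permutation test written in Python 3.11.15 with NumPy 2.4.6. Named genes were the 4 markers and Polg, the 15 largest rises and falls with a mean of at least 100, the 8 largest gains and losses per kilobase of exon, from each list the 6 smallest adjusted p, members against the majority and all members where 12 or fewer were measured, and the 4 most extreme interactions per direction with a mean of at least 100, of which some are left out for length and some genes are not reported here. The group of libraries and the 63 gene lists were chosen with earlier results of these data known, and a few genes outside the rule, such as Slc12a1, Vcam1 and Il34, were named after their values were seen.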

Additional observations from a re-analysis of the deposited data

Results flagged for a closer look

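In 520 groups of 6 libraries, for the genes named in the report and 4 library measures, the gap between 1 library and the rest, as a share of the group's range, exceeded Dixon's 95% critical value 39 times. Chance gives about 1 in 20. Aldh18a1 (0.78), Asns (0.75), Atf5 (0.74) and Cdkn1a (0.68) were lowest in B-IRI replicate 1 by this gap. Csf1 (0.66), Eif4ebp1 (0.65), Fosl1 (0.84) and Gsta1 (0.74) were lowest in B-IRI replicate 1 by this gap. Myc (0.74), Pck2 (0.71), Slc7a1 (0.63) and Slc7a11 (0.74) were lowest in B-IRI replicate 1 by this gap. Synpo (0.67), Trib3 (0.64) and Vcam1 (0.74) were lowest in B-IRI replicate 1 by this gap. Acadm (0.64) and Aldh1a7 (0.63) were highest in B-IRI replicate 1 by this gap. Cd55 (0.71) was lowest in B-IRI replicate 2 by this gap. Clcn5 (0.66) and Pvalb (0.63) were highest in B-IRI replicate 5 by this gap. Foxj1 (0.72) was lowest in sham replicate 1 by this gap. Erbb3 (0.75) was highest in sham replicate 1 by this gap. Psap (0.70) and Slc14a2 (0.67) were lowest in sham replicate 2 by this gap. Cyp4a10 (0.65) and Cyp4a14 (0.72) were highest in sham replicate 3 by this gap. Slc22a7 (0.72) was highest in sham replicate 4 by this gap. Pax8 (0.67) was highest in sham replicate 5 by this gap. Ace (0.71), Cd55 (0.64), Il34 (0.67) and Me1 (0.70) were lowest in sham replicate 6 by this gap. Slc5a8 (0.78), Treh (0.86) and Vil1 (0.63) were lowest in sham replicate 6 by this gap. Foxi1 (0.64) and Spp1 (0.75) were highest in sham replicate 6 by this gap. Among library measures, sham libraries had such a gap for reads assigned to genes (0.85) and for the share of the 50 highest genes (0.80).

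For 110 of 256 named genes the response to surgery differed between the genotypes by the interaction in limma (adjusted p under 0.05, 6 libraries per group). Over all genes tested the interaction was called for 15.9%. Named genes were picked in part for small adjusted p or extreme interactions in these data, so their count follows in part from that choice. Values are given here as the PolgD257A log2 change minus that of Polg+/+. Lcn2 (2.22), Fosl1 (2.19), Sox9 (1.98), Krt20 (1.94), Adamts4 (1.93) and Fgb (1.90) rose more in PolgD257A than in Polg+/+. Cxcl2 (1.78), Timp1 (1.56), Flnc (1.49), Lif (1.44), Serpina10 (1.35) and Spp1 (1.30) rose more in PolgD257A than in Polg+/+. Slc34a2 (1.28), Atf3 (1.27), Gdf15 (1.23), Cdkn1a (1.22), Abcb1b (1.09) and Arg2 (1.09) rose more in PolgD257A than in Polg+/+. Plaur (1.08), Cldn4 (1.08), Havcr1 (1.07), Hmox1 (1.06), Tnfrsf12a (0.95) and C3 (0.94) rose more in PolgD257A than in Polg+/+. Hspb1 (0.93), Krt8 (0.89), Krt18 (0.85), Cp (0.83), Junb (0.80) and Myof (0.79) rose more in PolgD257A than in Polg+/+. Il34 (0.76), Nfkb2 (0.76), Srxn1 (0.76), Abcc3 (0.74), Tubb2a (0.73) and Eif4ebp1 (0.72) rose more in PolgD257A than in Polg+/+. S100a10 (0.72), Tubb5 (0.70), Csf1 (0.68), Lgals3 (0.66), Slco2a1 (0.65) and Slc20a1 (0.61) rose more in PolgD257A than in Polg+/+. Icam1 (0.60), Pgd (0.58), Cdt1 (0.58), Slc7a5 (0.57), Stat3 (0.56) and Tubb2b (0.53) rose more in PolgD257A than in Polg+/+. Pdgfb (0.48), Tagln2 (0.41), Fth1 (0.40), Synpo (0.39) and Anxa5 (0.34) rose more in PolgD257A than in Polg+/+. Egf (-2.14), Pvalb (-2.09), Tmem207 (-1.98), Kcng1 (-1.95), Slc7a13 (-1.92) and Inmt (-1.26) fell further in PolgD257A. Slc22a26 (-1.13), Cyp7b1 (-1.10), Slc22a7 (-1.06), Slc5a8 (-1.06), Miox (-1.03) and Aadat (-0.99) fell further in PolgD257A. Slc34a1 (-0.89), Slc22a8 (-0.82), Cndp1 (-0.82), Lpl (-0.80), Slc9a8 (-0.77) and Ace (-0.76) fell further in PolgD257A. Fbp1 (-0.73), Kmo (-0.72), Klhl3 (-0.72), Per3 (-0.71), Cyp2e1 (-0.71) and Cbs (-0.68) fell further in PolgD257A. Khk (-0.66), Cxcl12 (-0.65), Ass1 (-0.65), Irx1 (-0.65), Kl (-0.63) and Cd55 (-0.63) fell further in PolgD257A. Cyp4b1 (-0.61), Tef (-0.61), Acadm (-0.59), Cfb (-0.58), Ivd (-0.57) and Acsm1 (-0.56) fell further in PolgD257A. Nxpe3 (-0.51), Nr3c2 (-0.50), Sod2 (-0.49), Treh (-0.46), Cldn10 (-0.44) and Ahcy (-0.43) fell further in PolgD257A. Csf1r (-0.41), Il11ra1 (-0.38), Bckdha (-0.38), Sod1 (-0.35), Col4a4 (-0.35) and Cdh16 (-0.32) fell further in PolgD257A. Col4a3 (-0.31), Me1 (-0.30) and Slc26a4 (-0.27) fell further in PolgD257A. Umod (-0.46) rose less, or changed the other way, in PolgD257A. Foxi1 (0.83) fell less, or changed the other way, in PolgD257A. Slc12a1 (-1.39), Aqp1 (-0.92), Hbegf (0.90) and Hnf4a (-0.32) did not pass in Polg+/+ and had a different response in PolgD257A.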

How the results depend on the processing

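Beside the 3729 genes higher and 3447 lower, the alternatives in scaling, pseudocount, filter, tool, libraries fitted and library weights gave 3435 to 4099 higher and 3078 to 3832 lower, and the interaction count of 2780 ranged from 2039 with no filter to 3242 with library weights. With a change of at least 1 on the log2 scale required as well, the counts were 489, 356 and 357. With 1 library left out they ranged from 3338 to 3752, from 2997 to 3445 and from 2123 to 2956. On recovered whole reads edgeR called 3785 higher and 3388 lower and DESeq2 3671 and 3562. The median of all genes moved by 0.02 under TMM scaling and by -0.01 under quantile normalization. Same-numbered libraries of the groups were not treated as paired in the main fit (correlations of deviations -0.05 to 0.07, with 1 of 6 numbers correlating best with its own). These correlations cannot show whether the design was paired, which the labels do not state. The fit with the replicate number as a block called 3555 higher, 3280 lower and 2326 interactions. Of 256 named genes 234 were called, 208 of them on the same side under every alternative run. Under at least 1 alternative 24 lost the call with the direction kept. Cdh16 and mt-Cytb also lost it, under quantile normalization, with the direction turned.

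The 4 library measures kept their direction and their side of the threshold under every omission of a library. The difference in reads was 3829400 to 4990350 and in genes with a read 496 to 660.0, and the shares of the 50 highest genes and of mitochondrial genes differed by -2.92 to -2.57 and by -1.12 to -0.91 percentage points.

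Quantile normalization turned the direction of Polg (-0.00020), Aqp1 (0.084), Hnf4a (0.072), Nphs1 (-0.020), mt-Cytb (0.084), mt-Nd1 (0.031) and Cdh16 (0.00089), of which the last 3 were called. The other turns were of genes or medians near 0 that were not called, and the cause was not tested. Mmp9 turned with edgeR (0.12) and DESeq2 (0.12), Trp63 with a pseudocount of 5 (-0.0029), edgeR (-0.050) and DESeq2 (-0.057), Upk3b with edgeR (0.014) and thinned reads (0.0092), and Star with thinned reads (0.0083). With single libraries left out, values ranged from -0.023 to 0.097 for Akr1b3, from -0.024 to 0.28 for Csf3r, from -0.0023 to 0.16 for Hdc, from -0.45 to 0.16 for Mmp9 and from -0.035 to 0.072 for Nphs1. They ranged from -0.054 to 0.44 for Sptssb, from -0.11 to 0.057 for Star, from -0.10 to 0.11 for Trp63 and from -0.20 to 0.18 for Upk3b, and the medians from -0.023 to 0.44 for the thin limb list and from -0.20 to 0.10 for the urothelium list. Thinning all libraries to 16689284 reads was chosen after seeing the data, since B-IRI libraries were deeper.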
